A study of Mus musculus with 7 samples.

Results

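Expression of the IL-33, IL-13 and type 2 response genes was followed in the mouse gastric corpus, the acid-secreting body of the stomach, after toxin-driven loss of parietal cells. The set held 9 genes taken by symbol: Il33, Il1rl1, Il13, Il4ra, Il13ra1, Chil3, Chil4, Retnla and Arg1. For each gene the probe set that the platform annotation assigned to that single symbol was used, with the highest mean signal where there were several. Of the 9 genes 8 were measured, each by 1 probe set, among 22180 genes on the array. Il1rl1, which encodes ST2, the receptor of IL-33, had no probe set in the annotation used and was not analysed here.

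All 7 arrays came from Atp4b-DTR mice of 8 to 12 weeks, a line named for Atp4b, the gene of a proton pump subunit of parietal cells, and for the diphtheria toxin receptor (DTR) that makes mouse cells sensitive to the toxin. The toxin groups had received diphtheria toxin by intraperitoneal injection at 225 ng per mouse on each of 3 days, and the uninjured control had received saline. Tissue was taken 24 h (1 array), 36 h (1 array), 48 h (2 arrays) or 72 h (2 arrays) after the last dose, with 1 control array. Values are log2 signal from arrays summarised by RMA, so a difference of 1 is 2-fold. Mice without the receptor that were given toxin are not analysed here, and the control carried the transgene too.

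IL-33 is an alarmin of the IL-1 family that is stored in the nuclei of epithelial, endothelial and stromal cells and released when they are damaged. It acts through ST2 and its co-receptor Il1rap on group 2 innate lymphoid cells, mast cells and T helper cells, which then secrete IL-13. IL-13 binds a receptor built from Il4ra and Il13ra1 and activates the transcription factor STAT6, which in mice induces Chil3, Chil4, Retnla and Arg1 in macrophages or epithelium. In the mouse stomach this axis is known for its part in metaplasia after parietal cells are lost.

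The array medians lay between 4.56 and 4.71 over all probe sets. Atp4b, the labelled parietal marker, read 12.94 in the control and 10.68 to 12.92 on the toxin arrays. The 2 arrays of the control and 24 h had high Xist (8.13 and 9.17) and low Eif2s3y, a Y-linked gene, while the 5 arrays from 36 h to 72 h had the reverse pattern, so every comparison with the control except that at 24 h set arrays of different pattern side by side. Where arrays from 36 h on are set against the control or 24 h array, pattern and time cannot be told apart. Among the arrays from 36 h to 72 h the pattern was the same. Within the pairs, 107 genes (0.482%) differed at least 2-fold at 48 h and 71 (0.320%) at 72 h. The labels call the samples at 48 h and 72 h independent and say nothing more of their animals, so p-values measure only the spread between these arrays. In bulk tissue, fewer cells of a type and less RNA per cell cannot be told apart.

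A gene was taken as too dim to read on an array where its signal was under the 95th percentile of 1394 odour and pheromone receptor genes on that array, which lay between 4.40 and 4.54. By this rule 5 of the 8 measured genes were above the line on all arrays (Il33, Il13, Il4ra, Il13ra1 and Arg1), Chil4 was above it on 6 and Retnla on 3, and Chil3 was too dim on all 7. Il13 and Arg1 did not pass the 99th percentile of the same receptor genes on any array, so their levels are near the background. The plot of the 8 genes by array shows these levels beside the line.

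**Figure D1:**
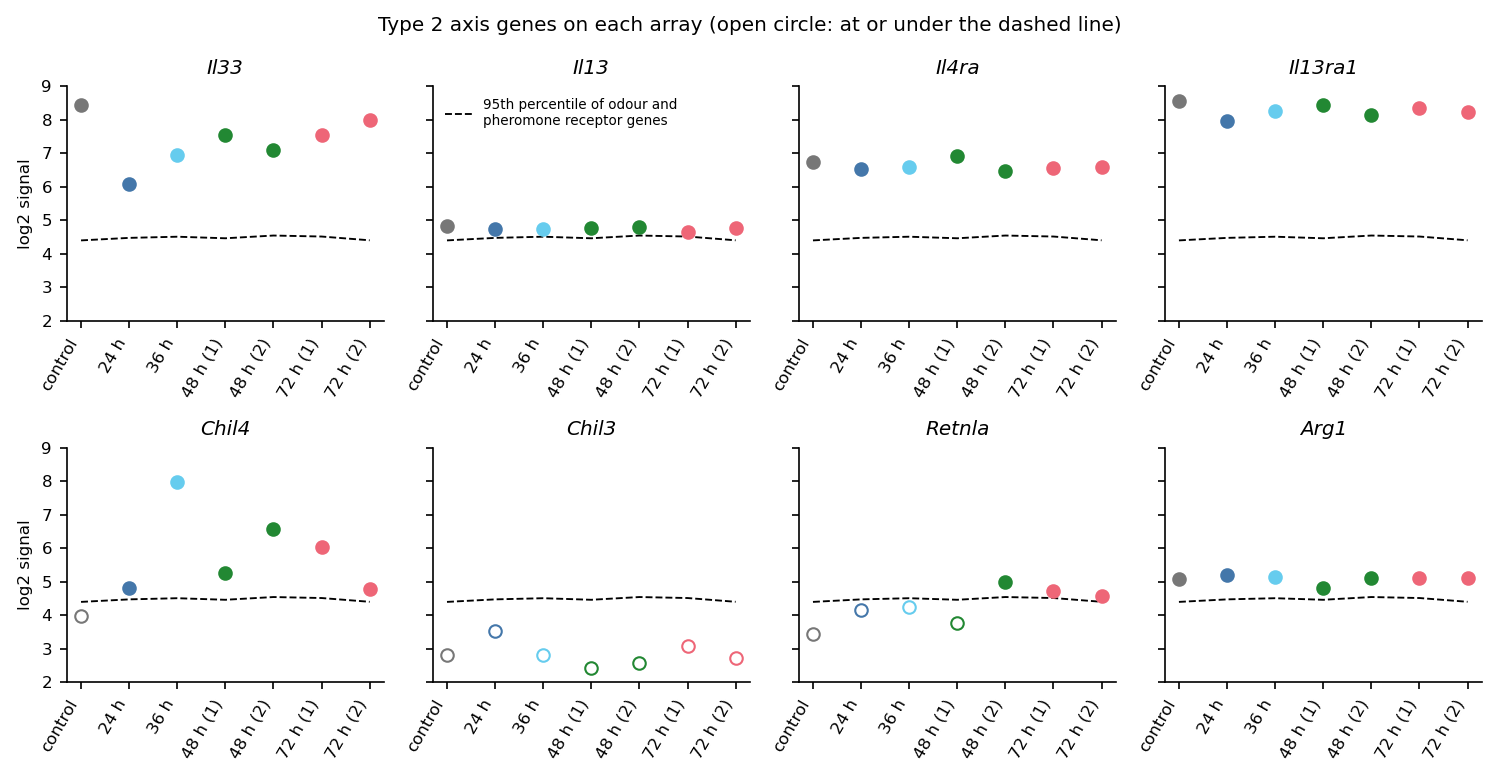
Log2 signal of the 8 measured genes (y axis) on each of the 7 arrays (x axis, saline control and hours after the last toxin dose); each point is 1 array, open where it is at or under the dashed 95th percentile of odour and pheromone receptor genes. Il33 is highest in the control (8.45) and lowest at 24 h (6.09), Chil4 is highest at 36 h (7.97), and Chil3 is open on all 7 arrays.

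Of the cytokine ligands, Il33 was highest in the control and lowest at 24 h. Its log2 signal was 8.45 in the control, 6.09 (24 h), 6.95 (36 h), 7.54 and 7.10 (48 h), and 7.55 and 7.98 (72 h). The control lay above all 6 toxin arrays, and the 72 h arrays lay just above the 48 h arrays, with 7.54 and 7.55 as the closest values. Of the 8 measured genes 5 had all 6 toxin arrays on 1 side of the control, as did 42.8% of all genes. Il33 was one of 3 that lay below it (22.6% of all genes), with Il13 and Il13ra1. At 24 h Il33 was 5.12-fold below the control, and 32 of 22180 genes had a more negative difference. This was the only one of the 8 genes at least 2-fold from the control at 24 h, as were 2.88% of all genes (1.67% lower and 1.2% higher). Il33 was also among 26 genes (0.117%) that were at least 4-fold below the control at 24 h and lowest there of the 7 arrays. That filter was shaped on the Il33 values themselves, so Il33 was bound to pass it and the share is no test. At 36 h Il33 was 2.83-fold lower, with 129 genes more negative. The control and 24 h arrays shared the Xist-high pattern, so the difference of -2.36 was measured within that pattern. These are single arrays and the differences have no replicate check.

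At 48 h Il33 averaged 7.32 ± 0.31 (SD, n = 2), and the difference from the control was -1.13 ± 0.30 (SE; 95% interval -2.07 to -0.19; limma adjusted p = 0.210, Benjamini-Hochberg over all genes). At 72 h the mean was 7.76 ± 0.30 (SD, n = 2), and the difference was -0.68 ± 0.30 (SE; limma adjusted p = 0.386). Both differences used the same control array, so they are not independent. The 72 h arrays were 0.45 ± 0.25 above the 48 h arrays (SE; limma adjusted p = 0.757). They did not overlap, as was so in the same direction for 16.7% of all genes (29.8% in either direction, 13% with 72 h lower). Across the 6 toxin arrays the slope was 0.74 ± 0.15 per 24 h (SE; 95% interval 0.37 to 1.10; limma unadjusted p = 0.00283, adjusted p = 0.440), and 137 genes had a smaller p. Without the 24 h array, the only toxin array with high Xist, the slope was 0.51 per 24 h (adjusted p = 0.697).

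No member passed the threshold of limma's adjusted p in any of the 4 comparisons, and neither did any other gene (background 0%). At an unadjusted p under 0.05, limma gave 4375 genes (19.7%) at 48 h, 3978 (17.9%) at 72 h, 1569 (7.07%) between 72 h and 48 h and 1929 (8.7%) for the slope. Of the 8 members Il33 was the only one past it, lower at 48 h (11.6% of all genes, with 8.16% higher) and with a slope above 0 (4.22%, with 4.47% below 0). None of the 8 was past it at 72 h against the control, where 7.93% of all genes were higher and 10% lower, or between 72 h and 48 h, with 4.27% higher and 2.8% lower. The smallest adjusted p over all genes was 0.120 at 48 h. The fit takes the spread of the single control from the pairs.

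Il33 has 2 annotated start sites in RefSeq (build GRCm38.p6), and its single probe set was read for both. The 250 bases upstream of each start are shown 5′ to 3′ because Il33 was the member furthest below the control. Capitals mark matches to TTCNNNNGAA and TTCNNNGAA, the letters of STAT6-type and STAT-type sites, and to TATAAA, searched on both strands.
Il33 start 1, chr19:29924863-29925112, forward strand: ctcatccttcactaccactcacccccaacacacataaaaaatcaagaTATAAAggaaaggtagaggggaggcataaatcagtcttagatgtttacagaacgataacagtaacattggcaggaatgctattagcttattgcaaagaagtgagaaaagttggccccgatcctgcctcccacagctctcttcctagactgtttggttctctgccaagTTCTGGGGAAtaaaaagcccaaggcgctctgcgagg
Il33 start 2, chr19:29945540-29945789, forward strand: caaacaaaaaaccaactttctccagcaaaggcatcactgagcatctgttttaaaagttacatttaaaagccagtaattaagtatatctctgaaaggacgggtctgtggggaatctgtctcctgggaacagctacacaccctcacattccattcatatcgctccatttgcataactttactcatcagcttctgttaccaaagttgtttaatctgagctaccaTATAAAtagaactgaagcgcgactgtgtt
The first window holds TTCTGGGGAA at -36 to -27 and TATAAA at -203 to -198 from the start. The second holds TATAAA at -29 to -24. Over 32851 windows of the same length, 5.85% hold TTCNNNNGAA, 7.02% hold TTCNNNGAA and 12.4% hold TATAAA, with overlaps between the 2 STAT patterns counted for both. A match describes letters only.

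Il33 is set beside the lists of stomach and stromal cell markers whose median was below the control on all 6 toxin arrays, those of parietal, chief, endothelial and fibroblast cells. The 10 parietal genes were all below the control on all 6 toxin arrays. Their median differences were -1.66 (24 h), -0.61 (36 h), -1.26 and -0.80 (48 h), and -0.57 and -0.25 (72 h). Both the parietal median and Il33 were furthest below the control at 24 h and nearest to it on the second 72 h array, but at 36 h and on the first 48 h array they were in opposite order. The log2 of the summed signal of the list was 14.45 in the control and 12.91 to 14.33 after toxin. The median of the 8 endothelial genes, in contrast, lay between -0.62 and -1.09 on all 6 arrays, and its extreme was at 36 h. The summed endothelial signal was 10.69 in the control and 9.54 to 9.86 after toxin. The 7 chief cell genes had medians of -0.74 to -0.52, with 6 of 7 lower at 24 h and 7 of 7 on the other 5 arrays, and their summed signal was 14.49 in the control and 13.72 to 14.16 after toxin. The 8 fibroblast genes had medians of -0.32 to -0.07, with 4 to 6 of 8 lower on each array, and a summed signal of 11.70 against 11.22 to 11.59. The part of any of these cells in the Il33 values was not tested.

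**Figure D2:**
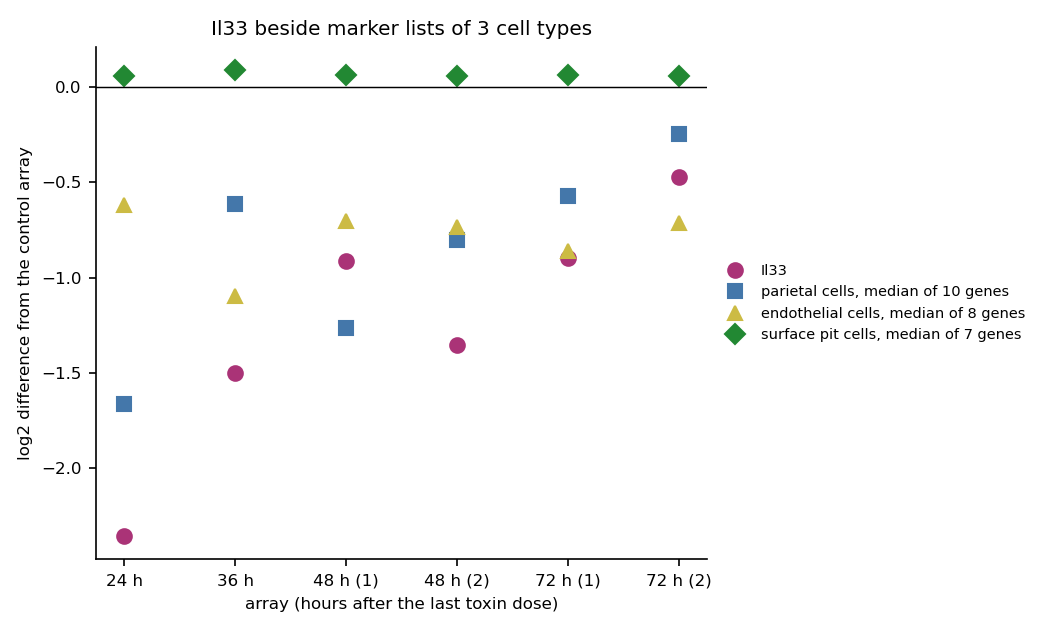
Log2 difference from the control array (y axis) on each toxin array (x axis) for Il33 and for the medians of the parietal (10 genes), endothelial (8 genes) and surface pit cell (7 genes) marker lists; the chief cell and fibroblast lists are not drawn. Il33 and the parietal median are furthest below 0 at 24 h (-2.36 and -1.66) and the pit cell median stays between 0.06 and 0.09.

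Il13, the effector cytokine of the axis, stayed within 0.20 over the 7 arrays. Its log2 signal was 4.83 in the control, 4.74 (24 h), 4.74 (36 h), 4.77 and 4.80 (48 h), and 4.64 and 4.77 (72 h). All 6 toxin arrays were below the control by 0.04 to 0.20, and 85.8% of all genes had a larger range. The difference was -0.05 ± 0.08 at 48 h (SE; limma adjusted p = 0.845) and -0.13 ± 0.08 at 72 h (adjusted p = 0.536). The 95% interval at 72 h ran from -0.38 to 0.12.

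The 2 receptor chains of IL-13 differed from the control by less than 2-fold on every array. Il4ra, the chain shared with IL-4, read 6.75 in the control, 6.53 (24 h), 6.58 (36 h), 6.90 and 6.48 (48 h), and 6.57 and 6.58 (72 h). The 48 h arrays lay on either side of the control, so the groups overlapped. The 48 h difference was -0.06 ± 0.21 (SE; 95% interval -0.72 to 0.60; limma adjusted p = 0.958), and the 72 h difference was -0.18 ± 0.21 (adjusted p = 0.784). Il13ra1, the other chain of this receptor, is encoded on the X chromosome. It read 8.55 in the control, 7.96 (24 h), 8.27 (36 h), 8.42 and 8.13 (48 h), and 8.35 and 8.21 (72 h). All 6 toxin arrays were below the control, with 24 h the lowest at -0.59. The difference was -0.28 ± 0.16 at 48 h (SE; adjusted p = 0.493) and -0.27 ± 0.16 at 72 h (adjusted p = 0.524). Its slope over the toxin arrays was 0.11 ± 0.08 per 24 h (adjusted p = 0.731).

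Of the STAT6-linked products, Chil4 was highest at 36 h and differed more than 2-fold within both pairs. It encodes Ym2, a chitinase-like secreted protein known from mouse stomach. Its log2 signal was 3.98 in the control, 4.82 (24 h), 7.97 (36 h), 5.25 and 6.58 (48 h), and 6.03 and 4.79 (72 h). All 6 toxin arrays were above the control, as were those of 20.2% of all genes, and the control was at a level too dim to read. Differences from the control can therefore be read only as lower bounds. With the control set at its background line, Chil4 was at least 11.9-fold higher at 36 h. The same bound was 1.81-fold and 4.55-fold on the 48 h arrays, 3.10-fold and 1.31-fold on the 72 h arrays and 1.33-fold at 24 h. Among the 8 genes Chil4 was the one at least 2-fold higher at 36 h, where 0.933% of all genes were, and Il33 was the one at least 2-fold lower, as were 1.61% (2.54% in either direction).

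The 48 h and 72 h arrays of Chil4 overlapped. The fitted difference from the control, which takes the dim control value as measured and is no size, was 1.94 ± 0.89 at 48 h (SE; 95% interval -0.82 to 4.69; limma adjusted p = 0.382) and 1.43 ± 0.89 at 72 h (adjusted p = 0.536). Between 72 h and 48 h it was -0.51 ± 0.73 (adjusted p = 0.820), and the slope was -0.29 ± 0.63 per 24 h (adjusted p = 0.932). The 2 arrays of a pair lay 1.33 apart at 48 h and 1.24 apart at 72 h, against a 99th percentile of 0.794 and 0.686 over all genes. With only the first or the second 48 h array, the 48 h difference was 1.27 or 2.60, and 0.81 or 2.05 with 1 array at 72 h.

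Chil4 is set beside markers of squamous forestomach epithelium, which also differed within both pairs, and of mast cells. The log2 of the summed signal of 9 squamous genes was 10.03 in the control, 10.14 (24 h), 10.75 (36 h), 10.15 and 10.52 (48 h), and 10.98 and 10.06 (72 h). The 3 arrays with the highest Chil4 thus had the 3 highest squamous sums. Krt4, a squamous keratin, read 7.79 in the control, 6.16 (24 h), 6.96 (36 h), 4.21 and 7.74 (48 h), and 8.51 and 4.12 (72 h). It was high in the control, where both Chil4 and the squamous sum were lowest. At 36 h Krt4 was below the control, while 5 of the 9 squamous genes were higher and 2 lower (median 0.24). Cpa3, a mast cell protease, read, with 24 h left out, 5.32 in the control, 5.03 (36 h), 6.60 and 6.67 (48 h), and 7.10 and 5.42 (72 h). Of 10 mast cell genes, 3 (Mcpt4, Tpsab1 and Fcer1a) were too dim to read. The summed signal, which the brightest genes weigh most, was 8.95 in the control and 8.07 to 8.96 after toxin. Of the 7 readable mast cell genes, 5 were higher and 2 lower than the control at 48 h (median 0.54) and at 72 h (median 0.78). Over all genes 47.4% were higher at 48 h and 49.1% at 72 h. At 24 h 5 of the 7 were higher and 2 lower (median 0.56), and at 36 h 2 were higher and 5 lower. The medians of the 7 on the first and second 72 h arrays were 1.09 and 0.10. The part of these cells in the Chil4 values was not tested.

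**Figure D3:**
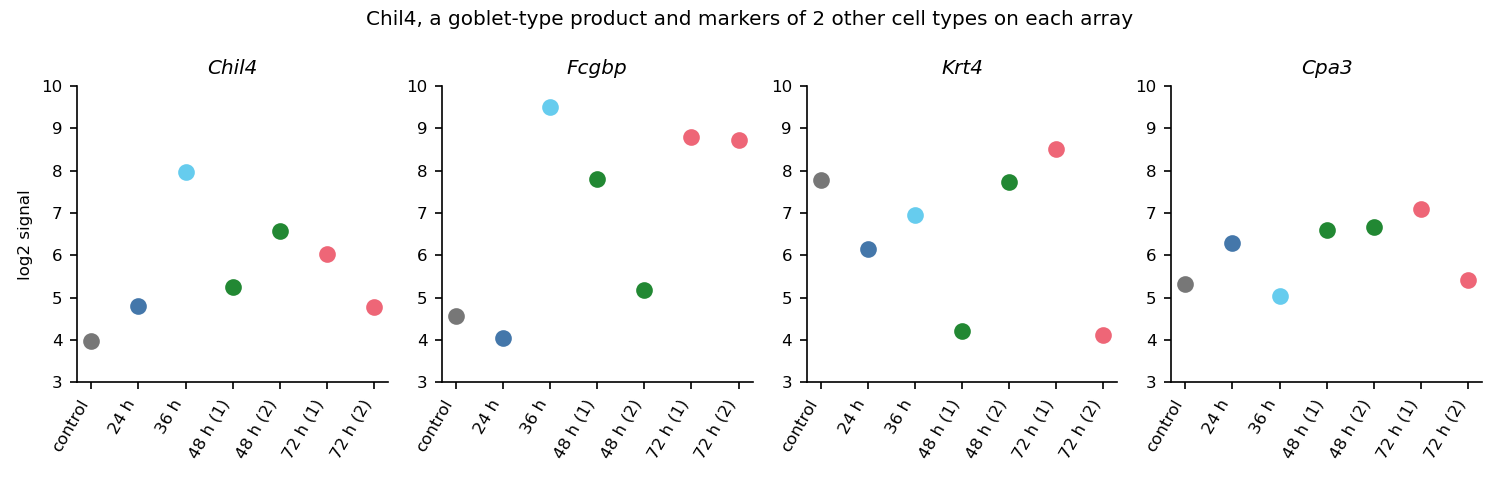
Log2 signal (y axis) of Chil4, Fcgbp, Krt4 and Cpa3 on each of the 7 arrays (x axis); each point is 1 array. Chil4 is highest at 36 h (7.97), Krt4 is 7.79 in the control but 4.21 and 4.12 on the first 48 h and second 72 h arrays, and Fcgbp is 5.18 on the second 48 h array.

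Chil3, Ym1, is the macrophage counterpart of Chil4 and lies next to it on chromosome 3, between Chia1 and Chil4. Its probe set read 2.42 to 3.53 on the 7 arrays, all too dim to read, so no fold is given. Chil3 and Chil4 are near-identical copies, and the probe sequences are not used here. Whether transcripts of one bind the probes of the other was not tested. The 250 bases upstream of the starts are shown with Retnla because these genes are known STAT6 targets and differ in the signal recorded.
Chil3, chr3:106167565-106167814, reverse strand: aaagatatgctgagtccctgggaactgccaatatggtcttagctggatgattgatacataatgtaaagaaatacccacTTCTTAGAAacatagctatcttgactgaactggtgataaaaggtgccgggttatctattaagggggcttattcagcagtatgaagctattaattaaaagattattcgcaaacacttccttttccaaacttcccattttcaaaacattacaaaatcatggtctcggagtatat
Chil4, chr3:106219480-106219729, reverse strand: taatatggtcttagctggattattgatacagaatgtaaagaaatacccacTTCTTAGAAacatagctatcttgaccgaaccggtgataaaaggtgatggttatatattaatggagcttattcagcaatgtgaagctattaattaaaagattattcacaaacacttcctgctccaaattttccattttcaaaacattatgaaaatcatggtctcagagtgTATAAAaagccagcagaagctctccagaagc
Retnla, chr16:48842359-48842608, forward strand: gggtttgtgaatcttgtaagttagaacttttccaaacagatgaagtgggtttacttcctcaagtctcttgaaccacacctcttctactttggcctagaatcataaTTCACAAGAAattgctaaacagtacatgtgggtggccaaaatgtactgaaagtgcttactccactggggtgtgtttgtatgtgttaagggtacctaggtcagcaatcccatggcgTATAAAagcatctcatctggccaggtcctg
The Chil3 and Chil4 windows are identical at 201 of 221 aligned bases (91.0%). Both hold TTCTTAGAA, at -172 to -164 in Chil3 and -200 to -192 in Chil4. Chil4 also holds TATAAA at -31 to -26. The shared site lies nearer the start in Chil3, and the Chil3 window ends within the stretch that matches this TATAAA. Whether Chil3 has these letters there cannot be read from its window. Retnla holds TTCACAAGAA at -145 to -136 and TATAAA at -30 to -25.

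Retnla encodes RELM-alpha, a secreted product of alternatively activated macrophages and epithelium. Its log2 signal was 3.44 in the control, 4.16 (24 h), 4.23 (36 h), 3.78 and 4.996 (48 h), and 4.73 and 4.58 (72 h). All 6 toxin arrays were above the control, but only the second 48 h array and both 72 h arrays passed the background line. Relative to the line in the control, these 3 arrays were at least 1.51-fold, 1.26-fold and 1.13-fold higher. Retnla was under the line on the other 4 arrays, control included, so the fitted differences take values too dim to read and are no sizes. They were 0.94 ± 0.60 at 48 h (SE; limma adjusted p = 0.526) and 1.21 ± 0.60 at 72 h (adjusted p = 0.436). With the first 48 h array alone the fitted 48 h difference was 0.33, and with the second alone 1.55. Arg1, the arginase that marks STAT6-activated macrophages in mice, read 5.08 in the control, 5.197 (24 h), 5.13 (36 h), 4.81 and 5.13 (48 h), and 5.13 and 5.13 (72 h). The control lay within the range of the toxin arrays, and the difference was -0.11 ± 0.16 at 48 h (SE; adjusted p = 0.817) and 0.04 ± 0.16 at 72 h (adjusted p = 0.963).

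**Figure D4:**
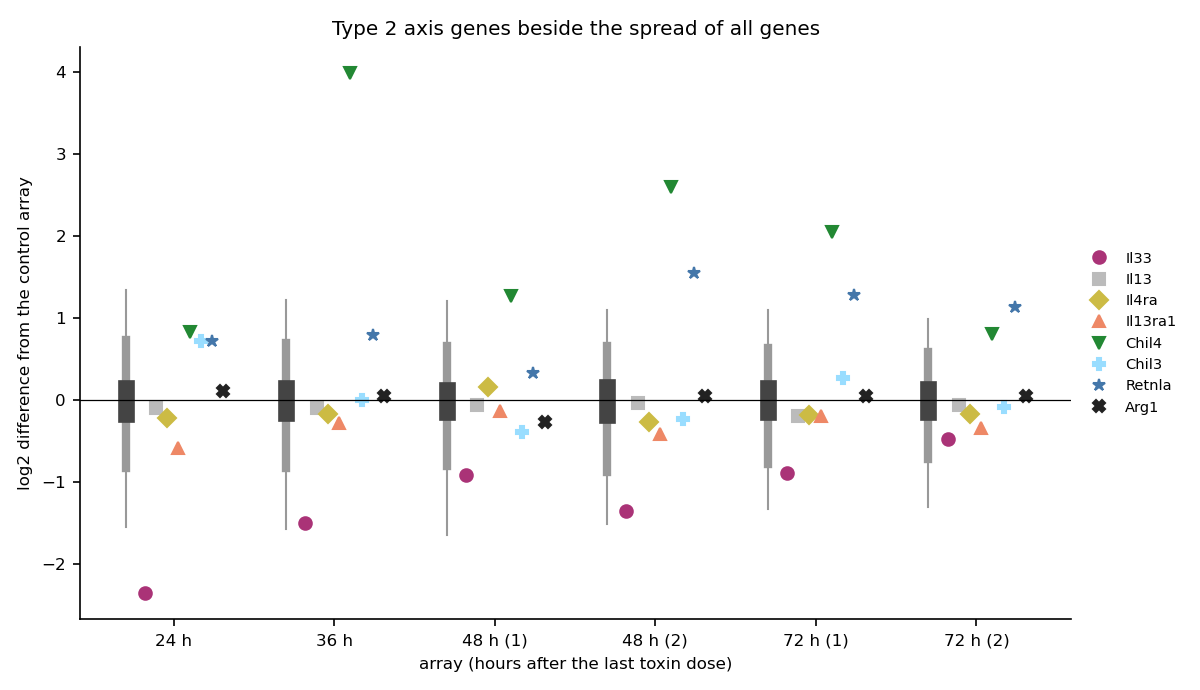
Log2 difference from the control (y axis) of the members on each toxin array (x axis), beside the spread of all 22180 genes. The bars, from thick to thin, span the middle 50%, 95% and 99% of genes. Il33 lies at -2.36 at 24 h. Chil4 lies at 3.99 at 36 h, but the Chil4, Chil3 and Retnla points are set against control values too dim to read.

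The wider pathway was described from lists around the members. The set of 7 alarmins and type 2 cytokines held 4 genes too dim to read, Tslp, Il4, Il5 and Il9; beside Il33 and Il13, Il25, the tuft cell alarmin, was readable at 4.83 to 5.24. Of 8 measured receptors, 4 were higher and 4 lower at 48 h, and 3 higher and 5 lower at 72 h. At a limma unadjusted p under 0.05, 1 was lower at 48 h (11.6% of all genes) and at 72 h (10%). This was Il1rap, the co-receptor of ST2, at -0.24 ± 0.05 (SE; limma adjusted p = 0.162) and -0.25 ± 0.05 (adjusted p = 0.175). Crlf2 was above the control on all 6 toxin arrays, at 0.47 ± 0.16 at 48 h (adjusted p = 0.269) and 0.48 ± 0.16 at 72 h (adjusted p = 0.283). Of 10 signalling genes, 7 were higher and 3 lower than the control at 48 h, with a median of 0.08 against 0 for all genes. At an unadjusted p under 0.05, 1 of the 10 was lower at 48 h (11.6% of all genes) and 1 higher at 72 h (7.93%). These were Irak1, a kinase downstream of ST2, at -0.27 ± 0.07 at 48 h (adjusted p = 0.199), and Irs2, an adaptor of the IL-4 receptor, at 0.63 ± 0.18 at 72 h (adjusted p = 0.248). Stat6 itself was at 0.09 ± 0.17 at 48 h.

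Of 12 macrophage products listed as STAT6-linked, 8 were higher at 48 h than the control (median 0.04) and 10 at 72 h (median 0.29), while 6 had a slope above 0 and 6 below. Over all genes 47.4% were higher at 48 h and 49.1% at 72 h, with a median of 0 in both. Of these 12, 6 were too dim on all arrays, among them Pdcd1lg2 and Ccl17, the 2 of 12 that were higher at 72 h at an unadjusted p under 0.05, as were 7.93% of all genes. Among the 6 readable genes, 3 were higher and 3 lower at 48 h (median 0.18), and 5 higher and 1 lower at 72 h (median 0.40). The counts over all 12 therefore rest in part on signal under the line. No gene was called. The 11 macrophage markers had medians of -0.09 to 0.18 on the 6 toxin arrays, and their summed signal was 9.75 in the control and 9.73 to 10.12 after toxin. At 24 h 8 of the 11 were higher and 2 lower, and at 48 h 2 were higher and 8 lower. Their slopes over the toxin arrays were below 0 in 10 and above 0 in 1 (median -0.13), beside 48.3% of all genes below 0. By limma 2 of the 11 had a slope below 0 at an unadjusted p under 0.05 (4.47% of all genes). Eosinophil markers were too dim in 5 of 6 genes. The 8 genes of group 2 innate lymphoid and T helper 2 cells, the IL-13 sources, held 3 too dim genes. Their summed signal, which the brightest genes weigh most, was 7.78 in the control and 7.49 to 7.71 after toxin. Against the control the 5 readable genes were split, with 3 higher and 2 lower at 48 h (median 0.11) and at 72 h (median 0.07). All 5 were lower at 72 h than at 48 h (median -0.07), as were 47.1% of all genes. By limma 1 of the 5 was lower there at an unadjusted p under 0.05 (2.8% of all genes). The part of these cells in the product values was not tested.

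Of 14 epithelial products of the type 2 response, 10 were higher and 4 lower than the control at 48 h, and none was called. Of the 12 readable ones, 9 were higher and 3 lower. At an unadjusted p under 0.05, 2 of the 14 were higher and 1 was lower, beside 8.16% and 11.6% of all genes. Clca1, a secreted goblet cell protein, was higher on all 6 arrays, by 2.32 (24 h), 3.85 (36 h), 3.29 and 3.50 (48 h), and 3.94 and 3.39 (72 h). The 48 h difference was 3.39 ± 0.29 (SE; limma adjusted p = 0.120). Fcgbp, a mucus protein, read 4.57 in the control, 4.05 (24 h), 9.50 (36 h), 7.81 and 5.18 (48 h), and 8.79 and 8.72 (72 h). The first 48 h array was high and the second near the control, and the 72 h difference was 4.19 ± 1.28 (adjusted p = 0.264). At 24 h Fcgbp was under the line of that array (4.47) and too dim to read. Its control value was just above the line (4.40) and under the 99th percentile (5.52), so the 72 h difference rests on a control near the background. Ccl11, the eosinophil chemokine eotaxin, read 8.25 in the control, 6.86 (24 h), 6.53 (36 h), 6.65 and 6.86 (48 h), and 6.999 and 6.85 (72 h). Its difference at 48 h was -1.49 ± 0.13 (adjusted p = 0.120).

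**Figure D5:**
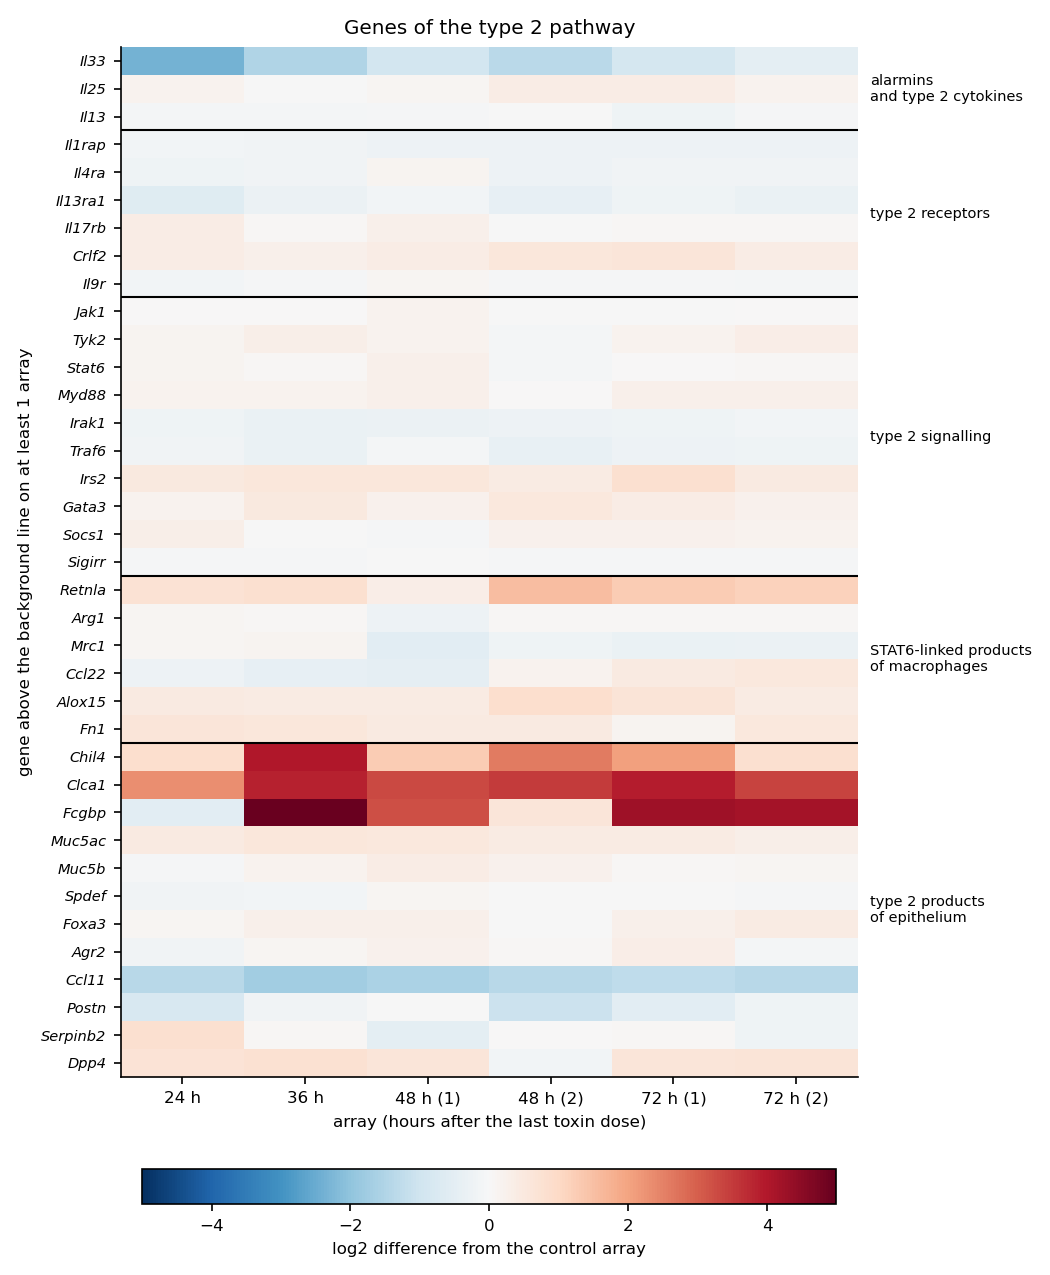
Log2 difference from the control array (colour) of pathway genes above the background line on at least 1 array (rows) on each toxin array (columns). Clca1 lies at 2.32 to 3.94 and Il33 at -2.36 to -0.47 on all 6 arrays.

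In the families of the members, the chitinase Chia1, an acidic chitinase of the stomach, read 12.72 in the control and 11.28 to 12.11 after toxin, and was at -0.68 ± 0.18 at 48 h (SE; limma adjusted p = 0.214). Retn, resistin, read 5.34 in the control, 4.22 (24 h), 5.75 (36 h), 4.79 and 4.56 (48 h), and 5.04 and 5.37 (72 h). Its 24 h value was under the line of that array (4.47) and too dim to read, and its second 48 h value was just above the line (4.54). In arginine metabolism, Oat, which degrades ornithine, was at -0.92 ± 0.11 (adjusted p = 0.121) and Ass1, which makes argininosuccinate, at 0.54 ± 0.06 (adjusted p = 0.121) at 48 h.

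By likeness over the 7 arrays, among genes with a range of at least 1, Il33 was most like Pacsin2 (Pearson r = 0.966), Clba1 (0.965), Pfkm (0.947), Tmem171 (0.934) and Cog7 (0.931), and 13 of 1048 genes (1.24%) had r above 0.9. Chil4 was most like Tango6 (0.902), Nccrp1 (0.880), Capn13 (0.878), Gstp2 (0.871) and Slc16a6 (0.859). Retnla was most like Spink4 (0.960), Cnbd2 (0.946), Vpreb2 (0.908), Rpl13 (0.869) and Rps19 (0.831), but Retnla was too dim to read on 4 of the 7 arrays, so this order rests largely on signal under the line. The Chil4 values include 1 such array, the control. These values describe 7 arrays that share the same control.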

How the data were processed

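Total RNA of gastric corpus was made into biotinylated cDNA (Affymetrix WT Plus) and hybridised, 1 array a sample. The deposited log2 values were made by the authors with RMA, as the submitters' processing notes name it beside Partek; the sources used here give no versions. They were used as deposited. Probe sets with 1 annotated gene (23521 of 41345) were kept, 1814 with several genes and 16010 with none were left out, and the highest-mean probe set was used per gene (22180 genes, 1082 with several). Names came from the platform annotation.

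Group means over 7 arrays and a slope per 24 h over the 6 toxin arrays were fitted with limma 3.58.1 in R 4.3.3 (2 and 4 residual degrees of freedom), two-sided, with Benjamini-Hochberg adjustment over all genes and calls at an adjusted p under 0.05. Single arrays at 24 h and 36 h were compared by fold alone. The test was checked on simulated data. Arrays have no read depth; their number limits precision. Alternatives changed the scaling, filters, variance prior, probe set rule and arrays used.

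The members and lists were chosen with earlier results of these data known. Named genes are the members, up to 4 readable genes of each list with the largest difference at 36 h, and the 5 genes most like each readable member with a range of at least 1; readable means above the background line on at least 1 array. Genes named outside that rule (Stat6, Krt4, Atp4b, Xist and Eif2s3y, and those listed as too dim) were chosen after their values were seen. Sequences are from RefSeq (GRCm38.p6), with promoters found for 8 of the 9 members.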

Additional observations from a re-analysis of the deposited data

How the results depend on the processing

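No member passed the adjusted p threshold in any alternative run, and Il33 kept its sign in all: its 48 h difference ran from -1.35 to -0.91 and its slope from 0.51 to 0.90 per 24 h. The number of genes called (0 in limma as reported) was 77 at 48 h and 13 at 72 h against the control with array medians subtracted, 12 and 6 with quantile normalisation again, 143 and 52 in the genes holding 6 or more different values over the arrays, and 167 and 30 with medians of all probe sets subtracted, a setting chosen after seeing the data that moved the median of all genes by up to -0.14; the cause was not tested. Leaving out 1 array gave 0 calls throughout. The replicate block, for 72 h against 48 h, gave 0 calls; numbers do not pair the samples (correlation of pair deviations -0.130), and crossed pairing, added after seeing the data, also gave 0 calls. Differences near 0 changed sign. With quantile normalisation Il4ra at 48 h was 0.0392 and Il13ra1 between 72 h and 48 h was -0.0315. With all probe set medians Arg1 was -0.0519 at 36 h and -0.00872 at 72 h, and its slope was 0.00351. Leaving out 1 array in turn, values that changed sign ran as follows. At 48 h against the control, Il4ra ran from -0.273 to 0.153 and Arg1 from -0.269 to 0.0433. At 72 h against the control, Chil3 ran from -0.0814 to 0.265. Between 72 h and 48 h, Il4ra ran from -0.332 to 0.0942, Il13ra1 from -0.139 to 0.151, Chil4 from -1.17 to 0.160 and Retnla from -0.343 to 0.878. The slopes ran from -0.0476 to 0.0187 in Il13, -0.0423 to 0.0310 in Il4ra, -0.363 to 0.177 in Chil3, -1.31 to 0.184 in Chil4 and -0.0439 to 0.0510 in Arg1. The control is 1 array, so every difference from it rests on that array.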
